A study of Homo sapiens with 12 samples.

Results

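The 10 genes described here encode growth factor receptors that have been tied to resistance to endocrine therapy and to CDK4/6 inhibitors: *EGFR*, *ERBB2*, *ERBB3* and *ERBB4* of the ERBB family, *FGFR1*, *FGFR2*, *FGFR3* and *FGFR4* of the FGFR family, *RET* and *MET*. They were picked by name, and each was found as 1 row of the count table, which held 60612 named rows. RNA was sequenced from ZR-75-1, an oestrogen receptor (ER)-positive human breast cancer cell line, in 4 groups of 3 replicates. The groups were sgControl cells, which had received a non-targeting guide RNA, and *RB1*-knockout cells, edited with CRISPR using a guide against *RB1*, each kept for 5 days in the solvent DMSO or in 500 nM abemaciclib, an inhibitor of CDK4 and CDK6. Per the study's methods, isogenic *RB1*-knockout lines were grown from single sorted cells. The number of clones behind each genotype is not stated, and no sample came from unedited cells. A difference between genotypes can therefore also be one between clones. The protein that *RB1* encodes, Rb, is the substrate through which CDK4 and CDK6 control entry into S phase.

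The receptors are transmembrane tyrosine kinases that pair up when a ligand binds and then signal mainly through the RAS–ERK and PI3K–AKT pathways. *ERBB2* encodes HER2, which has no known soluble ligand of its own and works as a partner of the other ERBB receptors. *ERBB3* encodes a receptor with very weak kinase activity that couples to PI3K. In luminal breast cells *RET* is a well-known oestrogen-responsive gene, and its protein binds glial cell line-derived neurotrophic factor (GDNF) family ligands together with a GFRα co-receptor. The FGFRs bind fibroblast growth factors with heparan sulfate or Klotho proteins, and MET binds hepatocyte growth factor (HGF).

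The depth was 39907318 to 81636393 counts per library, and values below are normalized counts, that is, counts divided by the DESeq2 size factor of the library. *RB1* held 29 to 63 raw counts in the knockout libraries and at least 2090 in every sgControl library, so no library went against its label. Luminal markers were present throughout (*ESR1* between 6156.9 and 18711.5 normalized counts), whereas 12 of the 16 basal, fibroblast, endothelial and immune markers, *KRT5*, *KRT14*, *TP63*, *VIM*, *PECAM1* and *PTPRC* among them, were at 6.1 or below in every library. The other four were *COL1A1* (1878.5 to 3031.4), *ACTA2* (127.5 to 898.0), *VWF* (20.5 to 101.9) and *DCN* (up to 23.8). The endothelial sum, nearly all *VWF*, was 21 to 38 in sgControl cells in DMSO and 91 to 101 in abemaciclib, and 31 to 34 and 86 to 102 in knockout cells. The fibroblast sum, nearly all *COL1A1*, was 2103 to 2398 and 2811 to 3051 in sgControl cells, and 1878 to 2058 and 2562 to 2669 in knockout cells. The part of these markers in the results was not tested. Replicate 1 of sgControl in DMSO stood furthest from its group, with a standard deviation of 0.187 for its log2 deviations from the group mean, and replicate 3 of that group followed with 0.147, against 0.073 to 0.106 in the other libraries. Mitochondrial transcripts took 2.823% to 4.131% of counts in DMSO and 5.443% to 8.531% in abemaciclib, and the part of this in the results below was not tested. These are bulk samples, in which fewer cells expressing a receptor and less receptor RNA per cell cannot be told apart.

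*RET*, *EGFR* and *MET* were the receptors with the largest changes, and the sequence just before the start of each gene is shown for that reason. The stretches are from RefSeq (GRCh38.p14), read 5′ to 3′ on the plus strand, and lie at chr10:43076819-43077063 for *RET*, chr7:55018767-55019016 for *EGFR* and chr7:116671946-116672195 for *MET*. Capitals mark GC boxes (GGGCGG) and E2F-type motifs, searched on either strand. The E2F-type motif was taken as TTGGCGC, with TTCGCGC as a further form of it, or else as the form written TTCCCGC.
RET: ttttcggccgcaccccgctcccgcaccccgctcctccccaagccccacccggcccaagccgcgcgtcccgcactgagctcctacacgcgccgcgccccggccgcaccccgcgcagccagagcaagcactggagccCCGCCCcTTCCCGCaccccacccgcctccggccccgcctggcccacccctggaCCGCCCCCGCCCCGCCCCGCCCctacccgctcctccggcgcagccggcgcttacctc
EGFR: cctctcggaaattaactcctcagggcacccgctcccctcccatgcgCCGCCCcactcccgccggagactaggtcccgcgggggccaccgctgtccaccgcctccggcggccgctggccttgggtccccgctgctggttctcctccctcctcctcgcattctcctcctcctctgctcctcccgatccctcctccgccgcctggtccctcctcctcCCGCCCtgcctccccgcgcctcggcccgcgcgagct
MET: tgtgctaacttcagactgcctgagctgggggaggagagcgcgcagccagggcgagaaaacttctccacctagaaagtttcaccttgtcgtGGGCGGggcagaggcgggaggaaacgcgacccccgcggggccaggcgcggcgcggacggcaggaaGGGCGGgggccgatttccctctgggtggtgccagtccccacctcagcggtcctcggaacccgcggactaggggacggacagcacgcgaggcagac
The GC content of these stretches was 80.0%, 73.6% and 68.4%, respectively. *RET* held 5 GC boxes, partly in a tandem run, and 1 E2F-type motif, while *EGFR* and *MET* each held 2 GC boxes and no E2F-type motif. Neither the AP-1 motif TGANTCA nor the ER half-site GGTCA was found in the 3 stretches. For comparison, among 35116 RefSeq windows of 250 bases before a start, 42.6% held a GC box, 9.3% an E2F-type motif, 6.6% the AP-1 motif and 32.6% the half-site. These matches are descriptions of the letters only.

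Levels of different receptors were compared per kilobase of exon (union of the annotated exons). This holds for the whole-transcript kit of the labels. With the 3′ kit in the general methods of the study, counts per kb would not measure level. In sgControl cells in DMSO *FGFR4* was the most abundant, at 4636 ± 223 normalized counts per kb (SD, n = 3), followed by *ERBB2* at 1502 ± 40.9 and *ERBB3* at 800.4 ± 75.6. *FGFR3* (590.2 ± 58.1) and *FGFR1* (274.3 ± 14.4) came next. These receptors were separated by more than their spread. *RET* stood at 64.7 ± 2.05, *ERBB4* at 43.97 ± 6.06 and *FGFR2* at 21.9 ± 2.37 normalized counts per kb. *MET* (9.91 ± 1.31) and *EGFR* (9.81 ± 2.43) were the scarcest and did not differ beyond their spread. With the longest transcript as the gene length, *FGFR1* came before *FGFR3* and *FGFR2* (59.2 ± 6.41) before *ERBB4* (47.3 ± 6.52), and *EGFR* (15.8 ± 3.91) lay just above *MET* (10.4 ± 1.38). The sum over the 10 receptors was 7952 ± 42.3 normalized counts per kb in sgControl cells in DMSO, 7123 ± 49.0 in sgControl cells in abemaciclib, 6753 ± 61.1 in knockout cells in DMSO and 4984 ± 123 in knockout cells in abemaciclib.

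The make-up of both families was then taken per kb. *ERBB2* made up 63.8% of ERBB transcripts per kb in sgControl cells in DMSO and 72.2% in abemaciclib, but 58.6% and 47.5% in knockout cells. The ERBB sum was 2356 ± 120 normalized counts per kb in sgControl cells in DMSO and 3639 ± 74.6 in abemaciclib, whereas in knockout cells it was 2219 ± 2.60 and 1928 ± 82.9. In knockout cells in abemaciclib *ERBB3* (947 ± 41.2 per kb) and *ERBB2* (916 ± 39.3 per kb) were within each other's spread. *FGFR4* went from 83.9% of FGFR transcripts per kb in DMSO to 58.0% in abemaciclib when *RB1* was intact and from 78.6% to 67.5% without it, and *FGFR3* from 10.7% to 33.4% and from 14.6% to 19.7%. These shares carry no test, and the limit set by the library kit holds for them too.

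**Figure D1:**
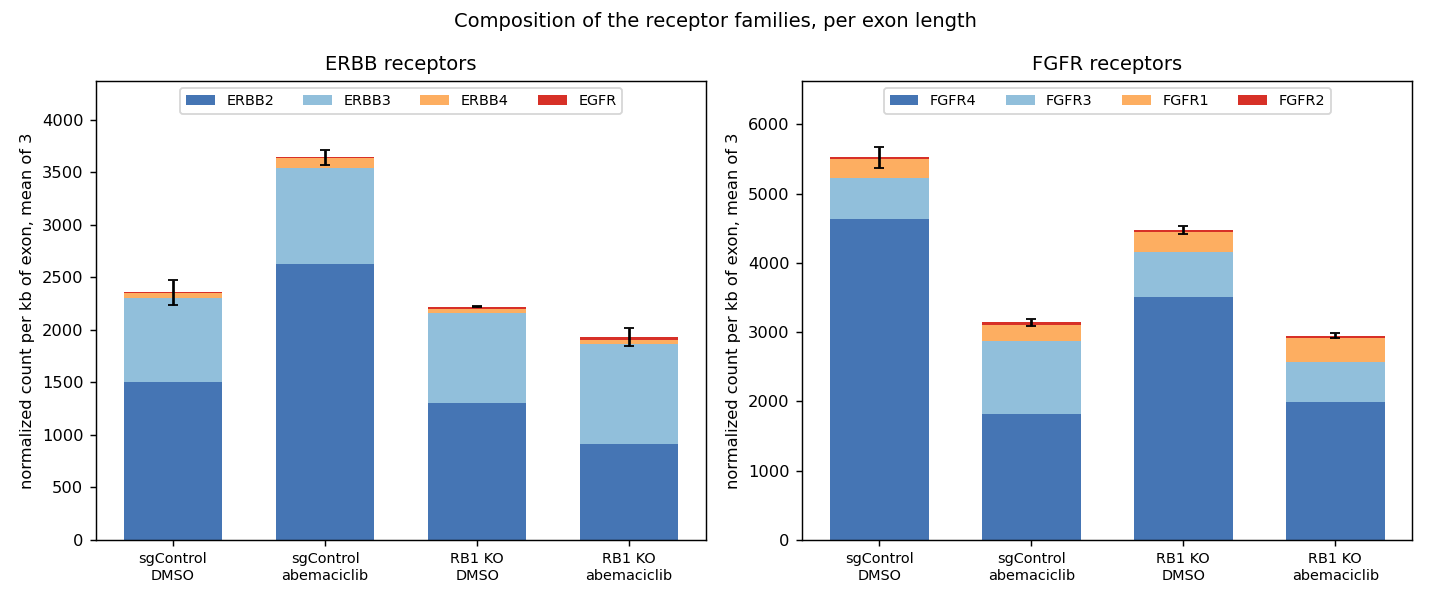
Stacked bars of mean normalized counts per kb of exon for the ERBB receptors (left) and FGFR receptors (right) in the 4 groups, with the SD of the family sum over 3 replicates as error bar. The ERBB sum was highest in sgControl cells in abemaciclib (3639 normalized counts per kb), and *FGFR4* formed the largest part of the FGFR bar in every group. With a 3′ kit these values would not measure level.

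The first comparison asked how the receptors respond to CDK4/6 inhibition when *RB1* is intact. All 10 receptors passed an adjusted p of 0.05, 6 higher and 4 lower in abemaciclib, and for each of the 10 the replicates of the 2 groups did not overlap, as was so for 55.8% of all genes tested. The background of calls was high, as 49.8% of these genes passed, 25.0% higher and 24.8% lower, and 72.6% passed among genes with a mean of at least 100 normalized counts. *RET* rose most (5.29-fold), *ERBB4*, *FGFR2*, *FGFR3* and *ERBB2* rose between 1.75-fold and 2.15-fold, and *EGFR*, *MET* and *FGFR4* fell to 0.217, 0.264 and 0.393 of their DMSO level. The median absolute log2 fold change over the 10 receptors was 1.02.

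The second comparison asked the same of cells without *RB1*. There 5 receptors were higher in abemaciclib, 2 were lower and 3 did not pass, against 30.0% of all genes called (14.9% higher and 15.1% lower) and 40.6% of genes with a mean of at least 100. The replicates did not overlap for 8 of the 10, against 49.4% of all genes tested. The median absolute log2 fold change was 0.425.

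The difference between the responses was tested as the interaction of drug and genotype, in which a positive value means a higher response in the knockout. It passed for 9 of 10 receptors, 4 positive and 5 negative, against 41.4% of all genes (21.1% positive and 20.3% negative) and 59.3% of genes with a mean of at least 100. In 4 receptors, *EGFR*, *MET*, *FGFR1* and *ERBB2*, the response was called in both genotypes and ran in opposite directions. *ERBB3* was the receptor for which no difference was called.

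**Figure D2:**
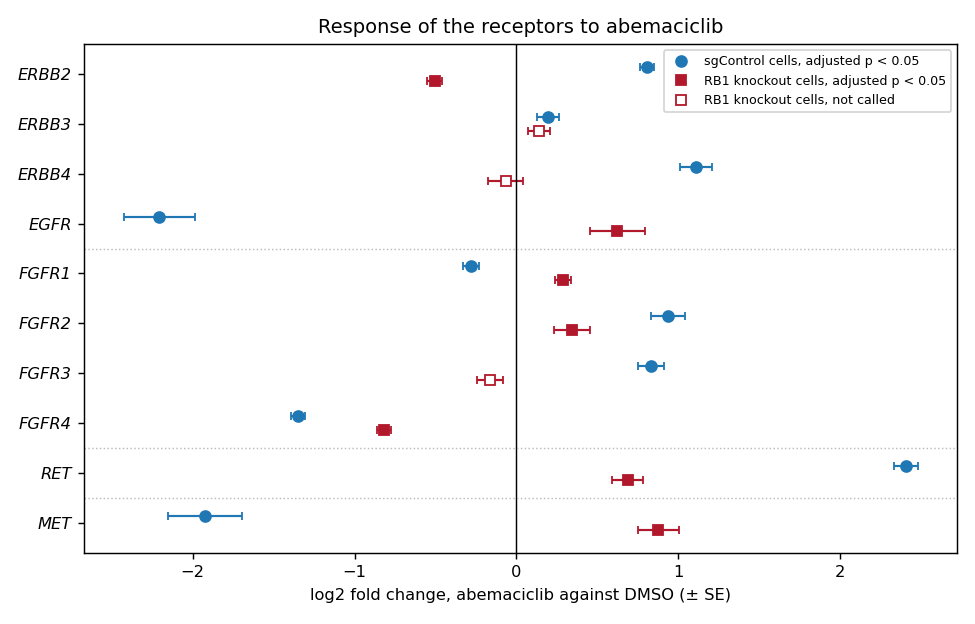
Log2 fold change of each receptor in abemaciclib against DMSO (horizontal axis, ± SE), for sgControl cells (blue circles) and *RB1*-knockout cells (red squares), with filled symbols for an adjusted p under 0.05. The 2 responses lie on opposite sides of 0 for *ERBB2*, *EGFR*, *FGFR1* and *MET*, and those of *ERBB3* lie within each other's SE.

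Among the ERBB receptors, *ERBB2* (chromosome 17, 39687914 to 39730426, plus strand, GRCh38) stood at 15156.9, 15371.0 and 15970.7 normalized counts in sgControl cells in DMSO and at 27828.5, 26604.7 and 26889.3 in abemaciclib. In knockout cells it stood at 13205.9, 13574.9 and 13493.9 in DMSO and at 9075.6, 9881.5 and 9403.9 in abemaciclib. All 4 groups were thus separate, with sgControl cells in abemaciclib highest and knockout cells in abemaciclib lowest. The log2 fold change was 0.81 ± 0.05 (SE, adjusted p = 8.76e-70) in sgControl cells and −0.51 ± 0.05 (adjusted p = 5.17e-26) in knockout cells. The interaction was −1.31 ± 0.06 (adjusted p = 5.56e-90). Part of *ERBB2* is overlapped on the opposite strand by *MIEN1* (2826 to 6087 raw counts) and *PGAP3* (922 to 3350 raw counts), and whether counting used strand is not stated. *PGAP3* itself had log2 fold changes of 0.99 in sgControl cells and −0.03 in knockout cells, *MIEN1* one of −0.26 in sgControl cells.

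*ERBB3* (chromosome 12, 56076799 to 56103505, plus strand) changed least. Its values were 8380.9, 9658.0 and 10080.6 in sgControl cells in DMSO, 10936.1, 10836.0 and 10401.9 in sgControl cells in abemaciclib, 10257.6, 9924.7 and 10056.2 in knockout cells in DMSO and 10792.4, 11641.9 and 10820.0 in knockout cells in abemaciclib. The groups in abemaciclib lay above those in DMSO in both genotypes, by small margins. The rise of 0.19 ± 0.07 in sgControl cells passed (adjusted p = 0.00957), but not with size factors from total counts (0.06 ± 0.09, adjusted p = 0.659) or when only the 6 sgControl libraries were fitted (0.17 ± 0.09, adjusted p = 0.105). The change of 0.14 ± 0.07 in knockout cells did not pass (adjusted p = 0.116), whereas it did when the 6 knockout libraries were fitted alone (0.13 ± 0.04, adjusted p = 0.00442). The interaction was −0.06 ± 0.10 (adjusted p = 0.693), with a 95% interval of −0.244 to 0.131 on the log2 scale. The end of *ERBB3* is overlapped on the same strand by a protein-coding gene without a symbol (56101331 to 56109289). No count was found for that gene, and its part in the *ERBB3* values was not tested.

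*ERBB4* (chromosome 2, 211375717 to 212538841, minus strand), which encodes a neuregulin receptor, stood at 485.9, 589.6 and 640.7 normalized counts in sgControl cells in DMSO and at 1199.4, 1296.5 and 1212.2 in abemaciclib. In knockout cells its values were 532.8, 496.9 and 490.0 in DMSO and 466.6, 521.2 and 462.0 in abemaciclib. sgControl cells in abemaciclib were above all other libraries, and the other groups overlapped. The response was 1.11 ± 0.10 (adjusted p = 2.04e-27) in sgControl cells and −0.07 ± 0.11 (adjusted p = 0.709) in knockout cells, and the responses differed by −1.17 ± 0.15 (adjusted p = 1.73e-14).

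*EGFR* (chromosome 7, 55019017 to 55211628, plus strand), the receptor for EGF, TGFα and amphiregulin, went the other way. It stood at 112.6, 186.0 and 170.7 in sgControl cells in DMSO and at 42.0, 38.1 and 22.9 in abemaciclib, where the raw counts were 26 to 43. In knockout cells it stood at 314.2, 308.5 and 271.7 in DMSO and at 439.4, 486.4 and 449.9 in abemaciclib. The 4 groups did not overlap, and knockout cells in abemaciclib were highest. The log2 fold change was −2.21 ± 0.22 (adjusted p = 3.5e-23) in sgControl cells and 0.62 ± 0.17 (adjusted p = 0.00158) in knockout cells, and the responses differed by 2.83 ± 0.28 (adjusted p = 2.47e-23). The summed level of the basal epithelial markers was 488 to 696 in sgControl cells in DMSO and 135 to 152 in abemaciclib. It was 812 to 888 in knockout cells in DMSO and 800 to 901 in abemaciclib, so the knockout groups overlapped, unlike those of *EGFR*. Almost all of this sum was *ACTA2*, *KRT5*, *KRT14* and *TP63* were at 6.1 or below, and its part in the *EGFR* values was not tested.

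**Figure D3:**
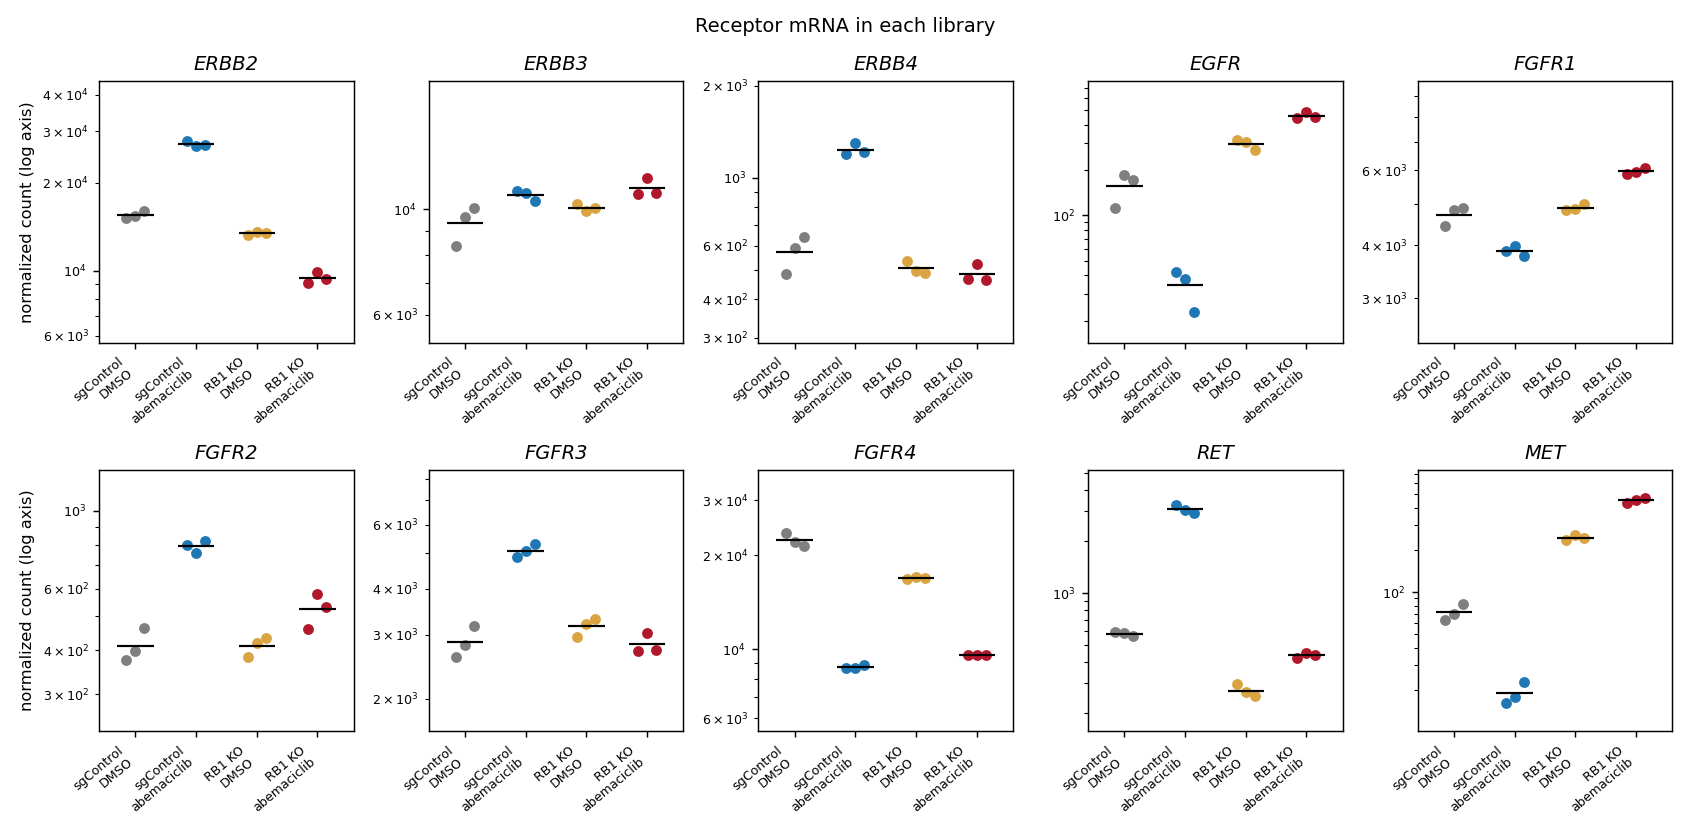
Normalized count of each receptor in each of the 12 libraries (points, log axis with its own range in each panel) by group, with the group mean as a line. *RET*, *ERBB2*, *ERBB4*, *FGFR2* and *FGFR3* are highest in sgControl cells in abemaciclib, and *EGFR*, *FGFR1* and *MET* are highest in knockout cells in abemaciclib.

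Among the FGFR receptors, *FGFR4* (chromosome 5, 177086905 to 177098144, plus strand), the main receptor for FGF19 in liver, was the one that fell in both genotypes. It stood at 23467.9, 22065.0 and 21358.0 normalized counts in sgControl cells in DMSO and at 8709.7, 8711.5 and 8857.7 in abemaciclib. In knockout cells the values were 16782.6, 17010.2 and 16882.7 in DMSO and 9581.8, 9554.0 and 9553.1 in abemaciclib. Both groups in abemaciclib were thus far below both groups in DMSO. The fall was −1.35 ± 0.04 (adjusted p = 4.06e-212) in sgControl cells and −0.82 ± 0.04 (adjusted p = 1.33e-76) in knockout cells. The interaction of 0.53 ± 0.06 (adjusted p = 9.62e-17) shows that the fall was smaller in the knockout.

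*FGFR3* (chromosome 4, 1793293 to 1808872, plus strand) stood at 2607.4, 2811.6 and 3164.3 in sgControl cells in DMSO and at 4878.6, 5090.3 and 5296.1 in abemaciclib. Its values were 2957.9, 3207.2 and 3305.8 in knockout cells in DMSO and 2712.3, 3034.5 and 2713.3 in abemaciclib. sgControl cells in abemaciclib were above all other libraries, whose groups overlapped. It rose by 0.83 ± 0.08 (adjusted p = 2.84e-24) in sgControl cells, and the value in knockout cells was −0.16 ± 0.08 (adjusted p = 0.119). The latter passed when only the knockout libraries were fitted (−0.17 ± 0.06, adjusted p = 0.0145). The interaction was −0.99 ± 0.11 (adjusted p = 3.66e-17).

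*FGFR2* (chromosome 10, 121478332 to 121598458, minus strand), a breast cancer susceptibility gene, was at 376.1, 399.3 and 462.4 in sgControl cells in DMSO and at 797.5, 758.9 and 819.3 in abemaciclib. In knockout cells it was at 383.9, 419.8 and 434.3 in DMSO and at 462.0, 578.0 and 531.6 in abemaciclib. The groups in DMSO coincided, and abemaciclib was above DMSO in each genotype. The response was 0.94 ± 0.11 (adjusted p = 6.39e-18) in sgControl cells and 0.34 ± 0.11 (adjusted p = 0.00955) in knockout cells. The latter was lost without replicate 1 of the knockout in DMSO (0.30 ± 0.13, adjusted p = 0.0667) or replicate 2 of the knockout in abemaciclib (0.27 ± 0.12, adjusted p = 0.0986). The interaction was −0.59 ± 0.15 (adjusted p = 4.42e-04).

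*FGFR1* (chromosome 8, 38400215 to 38468834, minus strand), often amplified in luminal breast cancer, changed little and in opposite directions. It was at 4433.9, 4829.9 and 4891.6 in sgControl cells in DMSO and at 3881.7, 3992.2 and 3776.5 in abemaciclib. It was at 4841.9, 4867.6 and 4992.9 in knockout cells in DMSO and at 5895.6, 5951.0 and 6084.3 in abemaciclib. The groups in DMSO overlapped, and those in abemaciclib lay below and above them. The response was −0.28 ± 0.05 (adjusted p = 1.6e-07) and 0.29 ± 0.05 (adjusted p = 3.7e-07), and the responses differed by 0.57 ± 0.07 (adjusted p = 5.22e-14). *LETM2*, which overlaps *FGFR1*, held 170 to 511 raw counts.

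*RET* (chromosome 10, 43077064 to 43130351, plus strand) had the largest rise in sgControl cells. It stood at 596.7, 585.2 and 560.7 normalized counts in DMSO and at 3262.1, 3034.9 and 2919.4 in abemaciclib. In knockout cells it stood at 295.1, 266.6 and 251.2 in DMSO and at 417.9, 449.6 and 437.8 in abemaciclib, so that all knockout libraries were below all sgControl libraries. The log2 fold change was 2.40 ± 0.07 (adjusted p = 2.28e-226) in sgControl cells and 0.69 ± 0.10 (adjusted p = 1.88e-11) in knockout cells, and the responses differed by −1.72 ± 0.12 (adjusted p = 6.62e-44). *ESR1*, which encodes ERα, had means of 12053.3 ± 1998.6 (SD, n = 3) and 18134.4 ± 623.4 in sgControl cells in DMSO and abemaciclib, and of 8358.9 ± 368.1 and 6386.2 ± 387.2 in knockout cells. The order of the sgControl and knockout groups in abemaciclib was the same for both genes, but within the knockout *RET* rose while *ESR1* fell (−0.39 ± 0.10, adjusted p = 6.58e-04).

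*MET* (chromosome 7, 116672196 to 116798377, plus strand) was scarce in sgControl cells, at 63.3, 69.6 and 81.9 normalized counts in DMSO and at 16.2, 17.7 and 22.9 in abemaciclib (15 to 26 raw counts). In knockout cells it stood at 233.6, 256.7 and 244.4 in DMSO and at 433.7, 450.6 and 466.0 in abemaciclib. As for *EGFR*, the groups were separate and knockout cells in abemaciclib were highest. The response was −1.92 ± 0.23 (adjusted p = 4.35e-16) in sgControl cells and 0.88 ± 0.13 (adjusted p = 1.34e-10) in knockout cells. The interaction was 2.80 ± 0.26 (adjusted p = 3.24e-25).

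The genotypes were then compared within each treatment, using the same libraries as above. In DMSO 5 of 10 receptors differed, 2 higher and 3 lower in the knockout, against 37.4% of all genes (19.2% higher and 18.2% lower) and 45.0% of genes with a mean of at least 100. The same 5 had replicates that did not overlap, against 46.3% of all genes tested. *MET* was 3.39-fold (log2 1.76 ± 0.15, adjusted p = 2.02e-30) and *EGFR* 1.90-fold higher (0.92 ± 0.18, adjusted p = 1.4e-06) in the knockout. *RET* was lower (−1.10 ± 0.09, adjusted p = 2.16e-31), as were *FGFR4* (−0.40 ± 0.04, adjusted p = 3.73e-19) and *ERBB2* (−0.21 ± 0.05, adjusted p = 3.79e-05). For the other five the log2 fold changes lay between −0.18 and 0.14. The largest of these, that of *ERBB4* (−0.18 ± 0.11, adjusted p = 0.173), passed without replicate 1 of sgControl in DMSO (−0.29 ± 0.09, adjusted p = 0.0076), and that of *FGFR3* (0.14 ± 0.08, adjusted p = 0.164) passed without replicate 3 of that group (0.22 ± 0.08, adjusted p = 0.0149).

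In abemaciclib 9 of 10 receptors differed between the genotypes, 4 higher and 5 lower in the knockout, against 55.9% of all genes (28.5% higher and 27.4% lower) and 74.4% of genes with a mean of at least 100. *MET* was 23.6-fold (log2 4.56 ± 0.22, adjusted p = 6.61e-97) and *EGFR* 13.5-fold higher (3.75 ± 0.21, adjusted p = 4.19e-68). *FGFR1* was higher by 0.62 ± 0.05 (adjusted p = 8.26e-33). The small difference in *FGFR4* (0.13 ± 0.04, adjusted p = 0.00804) was lost without replicate 1 or replicate 2 of sgControl in abemaciclib (adjusted p = 0.0556 and 0.0545). The 5 lower receptors were *RET* at −2.82 ± 0.08 (adjusted p = 6.14e-275), *ERBB2* at −1.52 ± 0.05 (adjusted p = 4.82e-241), *ERBB4* at −1.36 ± 0.10 (adjusted p = 1.35e-38), *FGFR3* at −0.85 ± 0.08 (adjusted p = 2.31e-25) and *FGFR2* at −0.59 ± 0.11 (adjusted p = 7.06e-08). *ERBB3* did not pass (0.05 ± 0.07, adjusted p = 0.579).

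Each receptor was also set beside the genes within 1 Mb of it at a mean of at least 100 normalized counts. Copy number was not measured, and its part in the differences between the genotypes was not tested. Around *RET* the 9 such genes had log2 fold changes of −0.27 to 0.08 between genotypes in DMSO, with a median of −0.08, while *RET* was at −1.10. Its nearest neighbour, *CSGALNACT2*, was at −0.08. The 9 neighbours of *EGFR* had a median of −0.05 and a range of −0.56 to 0.29, which *EGFR* at 0.92 exceeded. The 4 neighbours of *MET* had a median of 0.02 and a range of −0.39 to 2.88, which enclosed *MET* at 1.76. Only 1 of the 4 was called higher in the knockout and 1 lower, and the nearest, *CAPZA2* and *ST7*, were at −0.39 and 0.01. *CTTNBP2*, another of the 4, held 79 to 146 raw counts in sgControl libraries in DMSO and 438 to 621 in knockout libraries in DMSO. The 31 neighbours of *ERBB2* had a median of −0.01 and a range of −1.034 to 0.775, which enclosed *ERBB2* at −0.21. The 29 of *FGFR4* had a median of 0.05 and a range of −0.462 to 0.584, which enclosed *FGFR4* at −0.40. In the response of sgControl cells, the neighbours' median was 0.10 for *RET* (range −0.74 to 0.29), −0.18 for *EGFR* (−0.86 to 0.96) and −0.08 for *ERBB2* (−4.03 to 2.06, which enclosed *ERBB2* at 0.81). For *MET* it was −0.18, with a range of −8.91 to 0.01 that enclosed *MET* at −1.92. The lowest value there is that of *CTTNBP2*, which had no count in the 3 sgControl libraries in abemaciclib, so its size is not a bound.

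**Figure D4:**
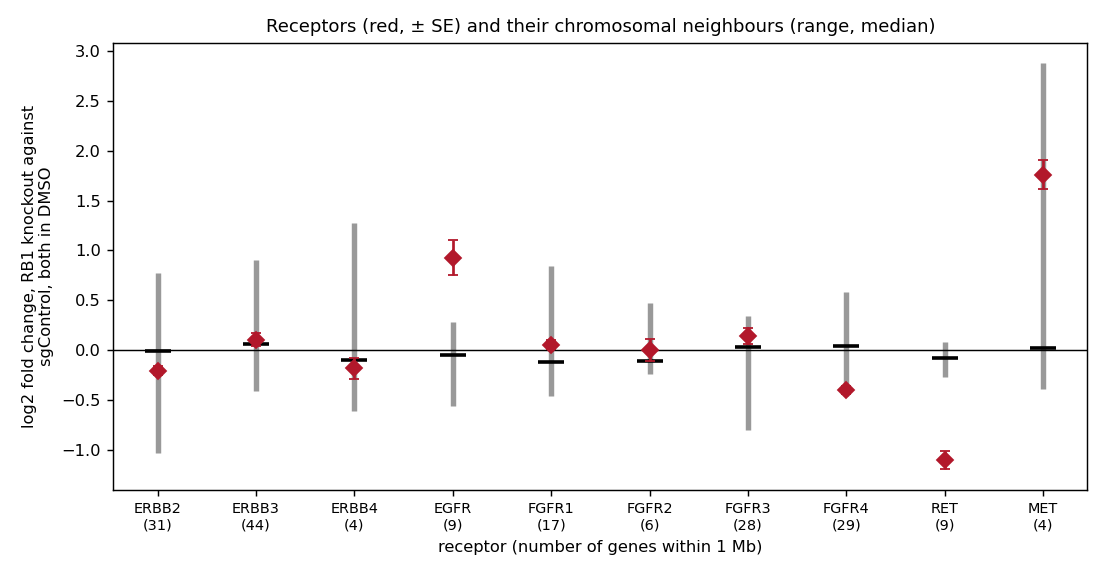
Log2 fold change between *RB1*-knockout and sgControl cells in DMSO for each receptor (red diamonds, ± SE) and for the genes within 1 Mb of it (grey bar for their range, black dash for their median, number in parentheses). *RET* and *EGFR* lie outside the range of their neighbours, and every median is between −0.11 and 0.06. For *MET*, which lies inside, 1 of 4 neighbours was called higher.

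The ligands and partners of the receptors were examined as lists, counted in the fit across all genes. For all list counts of responses below, the shares called in either direction among all genes tested stand beside them. These were 49.8% in the sgControl response, 30.0% in the knockout response and 41.4% in the interaction. Among genes with a mean of at least 100 they were 72.6%, 40.6% and 59.3%. All 11 ERBB ligands were tested. In sgControl cells 3 were higher and 5 lower in abemaciclib, with a median log2 fold change of −0.352, and in knockout cells 4 were higher and 1 lower, with a median of 0.521. The medians over all genes tested were 0.016 and 0.017. The response was the higher in the knockout for 6 and the lower for 1. *AREG*, which encodes the EGFR ligand amphiregulin, went from 1320.1 ± 47.2 (SD, n = 3) to 757.9 ± 12.8 normalized counts in sgControl cells. In the knockout it went from 990.6 ± 28.3 to 1412.6 ± 11.4, and the responses differed by 1.31 ± 0.09 (adjusted p = 2.91e-48). *NRG3*, a neuregulin that binds ERBB4, went from 299.3 ± 55.3 to 17.8 ± 3.3 in sgControl cells (−4.09 ± 0.23, adjusted p = 2.03e-69), and in knockout cells its libraries were at 480.4 to 495.9 in DMSO and 573.0 to 639.5 in abemaciclib (0.30 ± 0.13, adjusted p = 0.0675). This knockout value passed when only the knockout libraries were fitted (adjusted p = 0.00859). It also passed with the filter of 10 counts in 3 samples (adjusted p = 0.0484) and without replicate 1 of sgControl in DMSO (adjusted p = 0.0092).

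*TGFA*, another EGFR ligand, rose in both genotypes (0.82 ± 0.10 and 0.75 ± 0.11, adjusted p = 1.68e-15 and 2.03e-10), and its interaction did not pass (−0.07 ± 0.15, adjusted p = 0.751). *EGF* fell in knockout cells (−0.40 ± 0.08, adjusted p = 2.86e-05). Its small rise in sgControl cells (0.18 ± 0.08, adjusted p = 0.0474) was lost in most of the alternative fits, for example with the replicate block (adjusted p = 0.0738).

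Of the 26 FGF ligands and co-receptors, 3 had no count and 15 were tested for the response in sgControl cells, where 3 were higher and 5 lower. In knockout cells 4 of 13 tested were higher and 0 lower by DESeq2 (1 lower at an unadjusted p under 0.05, 0 by edgeR), and the response was the higher in the knockout for 5 and the lower for 1. *FGF2*, which encodes basic FGF and was picked after its values were seen, stood at 7.4 ± 3.4 normalized counts (SD, n = 3) in sgControl cells in DMSO, at 0 to 1 raw counts per library in abemaciclib, and at 45.5 ± 13.3 and 166.4 ± 19.9 in knockout cells in DMSO and abemaciclib. Its knockout response was 1.86 ± 0.28 (adjusted p = 1.12e-09). Those named by the rule, at a mean of at least 100 over the 12 libraries, were no receptor ligands of the classical kind. *FGF12* and *FGF13* encode intracellular FGF homologues that modulate sodium channels, and *FGFRL1* encodes a receptor-like protein without a kinase domain. *FGF12* rose in both genotypes (0.58 ± 0.10 and 0.60 ± 0.10), *FGF13* changed by −0.78 ± 0.10 and 0.65 ± 0.09, and *FGFRL1* fell in sgControl cells (−0.36 ± 0.06).

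Of the RET ligands and co-receptors, 2 of 7 tested were higher and 4 lower in sgControl cells (median −1.445), and 5 of 6 were higher in knockout cells (median 0.449). The response was the higher in the knockout for 4 and the lower for 1. *GFRA1*, the co-receptor for GDNF, stood at 3526.2 ± 186.5 (SD, n = 3) and 753.7 ± 48.0 in sgControl cells in DMSO and abemaciclib and at 1640.5 ± 11.5 and 2306.5 ± 152.8 in knockout cells. Its response was thus −2.23 ± 0.07 (adjusted p = 7.35e-203) where that of *RET* was 2.40, and 0.49 ± 0.07 (adjusted p = 1.75e-10) in the knockout, and the responses differed by 2.72 ± 0.10 (adjusted p = 8.42e-154). The ligand genes *ARTN* (1.61 ± 0.28, adjusted p = 3.4e-08) and *PSPN* (1.19 ± 0.15, adjusted p = 2.56e-15) rose in sgControl cells, and *NRTN* (−1.45 ± 0.14, adjusted p = 2.76e-24) and *GDF15* (−1.69 ± 0.11, adjusted p = 1.17e-50), whose product signals through RET with GFRAL, fell. *ARTN* was scarce in sgControl cells, at 24.9 ± 8.3 in DMSO (25 to 34 raw counts) and 74.6 ± 21.0 in abemaciclib. In knockout cells *ARTN* was at 112.2 ± 12.2 and 205.4 ± 38.1, through which it reached the mean of 100 used for naming. No read of *GFRAL* was counted in any of the 12 libraries, which allows up to 3 reads in each. *GDNF* itself, looked up after its values were seen, held 2 to 8 raw counts in sgControl cells in DMSO, 0 in all 3 sgControl libraries in abemaciclib, 15 to 22 in knockout cells in DMSO and 43 to 61 in knockout cells in abemaciclib.

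For *MET*, no read of its ligand *HGF* was counted in any of the 12 libraries, which allows up to 3 reads in each. The list held *HGF*, its activating proteases, their inhibitors and the related MST1 pair. Of 8 tested, 7 were higher in sgControl cells (median 0.619), and 2 of 7 were higher in knockout cells. Of those higher in sgControl cells, *HPN*, *MST1* and *TMPRSS2* were scarce, with at most 51, 36 and 44 raw counts per sgControl library. By DESeq2 the response was the lower in the knockout for 4 and the higher for 0, and it was the higher for 0 at an unadjusted p under 0.05 and for 0 by edgeR. *SPINT1* (0.74 ± 0.06, adjusted p = 4.66e-39) and *SPINT2* (0.50 ± 0.07, adjusted p = 3.09e-13), which encode the protease inhibitors HAI-1 and HAI-2, rose in sgControl cells, as did *ST14* (0.32 ± 0.05, adjusted p = 2.71e-08), which encodes the HGF-activating protease matriptase. In knockout cells these 3 were at 0.13 ± 0.06, −0.05 ± 0.07 and −0.08 ± 0.06, and none passed in the main fit. The value of *SPINT1* passed with total-count size factors (adjusted p = 0.000441) and when only the knockout libraries were fitted (adjusted p = 0.00181). It also passed without replicate 1 or replicate 3 of sgControl in DMSO (adjusted p = 0.00417 and 0.0169).

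**Figure D5:**
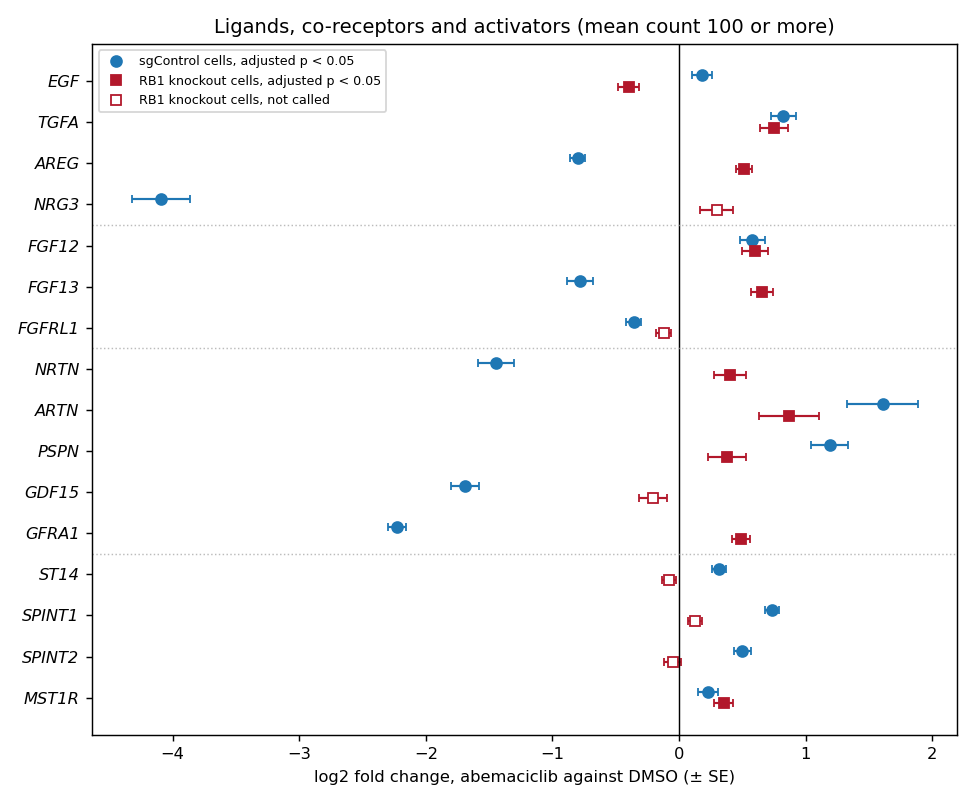
Log2 fold change in abemaciclib against DMSO (horizontal axis, ± SE) for the 16 ligand, co-receptor and activation genes with a mean of at least 100 normalized counts, in sgControl cells (blue circles) and *RB1*-knockout cells (red squares). Dotted lines part the ERBB, FGF, RET and MET lists, and *NRG3* and *GFRA1* show the lowest values in sgControl cells.

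Downstream of the receptors, the 30 adaptor and effector genes were split evenly, 11 higher and 11 lower in sgControl cells (median 0.040) and 6 and 6 in knockout cells, with 8 of the responses higher and 9 lower in the knockout. *GRB14* and *GRB10*, which encode adaptors that dampen receptor signalling, rose by 1.57 ± 0.17 and 1.33 ± 0.08 in sgControl cells, and *PIK3R1*, the regulatory subunit of PI3K, by 1.11 ± 0.08. *HRAS* (−1.16 ± 0.10) and *MAPK3* (−0.66 ± 0.08), which encodes ERK1, fell. Each of these 5 had an adjusted p of 9.54e-17 or lower.

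Of 21 feedback inhibitors of receptor and ERK signalling, 11 were higher and 4 lower in sgControl cells (median 0.239), and 7 and 2 in knockout cells (median 0.128). The response was the higher in the knockout for 5 and the lower for 8. *DUSP4*, which encodes a phosphatase of ERK, was at 14134.8 ± 333.4 (SD, n = 3) and 16075.8 ± 954.6 in sgControl cells and fell from 15466.9 ± 315.0 to 4337.4 ± 127.0 in knockout cells (−1.83 ± 0.05, adjusted p = 7.88e-254), and the responses differed by −2.02 ± 0.07 (adjusted p = 9.95e-159). *SPRED3* (1.93 ± 0.14) and *TRIB1* (1.53 ± 0.12) rose in sgControl cells, and *TRIB1* also rose in knockout cells (1.44 ± 0.12). *LRIG3*, which encodes a leucine-rich repeat protein of the LRIG family, fell in sgControl cells (−1.87 ± 0.19), and *SPRY2*, a Sprouty gene, rose in knockout cells (1.27 ± 0.20). *SPRY2* stood at 102.2 ± 9.5 and 69.1 ± 10.9 in sgControl cells in DMSO and abemaciclib, and at 68.3 ± 11.1 and 164.2 ± 21.9 in knockout cells. It reached the mean of 100 used for naming through knockout cells in abemaciclib, the group in which it rose.

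Among 12 transcripts known to depend on ERK, 4 were higher and 7 lower in sgControl cells (median −0.731), and 6 of 11 were higher and 2 lower in knockout cells (median 0.261). The response was the higher in the knockout for 7 and the lower for 2. The members did not move as one. *FOS* and *EGR1*, immediate early genes, rose in both genotypes (3.21 ± 0.34 and 2.49 ± 0.24 in sgControl cells, 4.04 ± 0.34 and 4.18 ± 0.24 in knockout cells). *FOSL1*, a later AP-1 component, fell in both genotypes (−4.33 ± 0.19 with *RB1* intact, −0.71 ± 0.11 without), and *ETV1*, an ETS factor, was at −2.67 ± 0.21 and 0.30 ± 0.11. *CCND1*, the cyclin D1 gene, rose in sgControl cells (1.18 ± 0.05) and was at −0.06 ± 0.05 in knockout cells.

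Of 48 other receptor tyrosine kinase genes, 40 were tested for the response in sgControl cells, where 9 were higher and 17 lower (median −0.406). In knockout cells 9 of 34 were higher and 6 lower, and the response was the higher in the knockout for 17 and the lower for 6. *NTRK2*, the receptor gene for brain-derived neurotrophic factor, rose by 3.19 ± 0.13 in sgControl cells and by 1.11 ± 0.15 in knockout cells, and the responses differed by −2.08 ± 0.19 (adjusted p = 1.45e-25). The ephrin receptor genes *EPHA7* (−2.55 ± 0.20) and *EPHA4* (−2.30 ± 0.24, also in the ERK list) and the Wnt receptor gene *ROR2* (−2.30 ± 0.09) fell in sgControl cells. In knockout cells *EPHA7* and *EPHA4* rose by 0.46 ± 0.13 and 1.03 ± 0.15, and *ROR2* was at 0.00 ± 0.08.

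Between genotypes, the lists were counted with the same DESeq2 model. Of all genes tested, 37.4% were called in either direction in DMSO and 55.9% in abemaciclib. Among genes with a mean of at least 100 these shares were 45.0% and 74.4%. In DMSO the knockout was higher for 3 and lower for 4 of 11 ERBB ligands, 6 and 0 of 12 tested FGF genes (1 lower at an unadjusted p under 0.05, 0 by edgeR), 4 and 1 of 6 RET ligands and co-receptors, and 1 and 1 of 7 MET genes. It was higher for 5 and lower for 3 of 29 adaptors, 6 and 4 of 21 feedback inhibitors, 5 and 4 of 11 ERK-dependent transcripts and 15 and 6 of 34 other receptor tyrosine kinases. In abemaciclib it was higher for 6 and lower for 3 of 11 ERBB ligands, 7 and 1 of 13 FGF genes, 5 and 1 of 6 RET genes and 1 and 5 of 8 MET genes. The counts there were 12 and 11 of 30 adaptors, 7 and 8 of 21 feedback inhibitors, 9 and 2 of 12 ERK-dependent transcripts and 22 and 8 of 40 other receptor tyrosine kinases.

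Lastly, the genes whose log2 levels over the 12 libraries most resembled each receptor were looked up among 11884 genes with a mean of at least 100. As the libraries form 4 groups and share depth and scaling, these correlations are descriptions. *RET* was closest to *ABCC3* and *PDZK1* (Pearson r = 0.997 for both), *EGFR* to *ASXL1* (0.997) and *PLCB1* (0.996), and *MET* to *CDH3* (0.996), the P-cadherin gene, and *NR3C2* (0.995). *ERBB2* was closest to *SYT12* (0.996), *ERBB4* to *GUCY1A1* (0.995), *FGFR4* to *C8orf33* and *GCLM* (0.993), *FGFR1* to *ZNF197* (0.991), *FGFR3* to *ZNF740* (0.990) and *FGFR2* to *SH3D21* (0.985). *ERBB3*, which varied least, had the lowest best match (*NOTCH2*, 0.966).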

How the data were processed

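RNA was sequenced from 12 ZR-75-1 samples, and the deposited file is a table of raw counts per gene with 1 column per sample. Per the study's methods and the submitters' processing notes, the authors trimmed reads with BBDuk, aligned them to hg38 with STAR 2.7.5b and counted them per gene with featureCounts 2.0.1 on a GENCODE annotation, without normalization or pooling. Use of strand and of reads with several alignments is not stated. Per the labels the library kit was directional and covered whole transcripts, whereas a 3′ kit is described in the general methods of the study. With the latter, counts per kilobase would not measure level.

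Of 60656 rows, 44 without a symbol were left out, and 0 columns lacked a sample. Sample titles gave the groups and the replicate numbers. DESeq2 1.42.0 (R 4.3.3) was fitted once to all 12 samples with a term for group, median-of-ratios size factors, two-sided Wald tests and Benjamini–Hochberg adjustment over the genes left by independent filtering, with a threshold of 0.05 and unshrunken fold changes. Errors of normalized counts are SDs over 3 replicates, which the design text calls biological. The precision of low counts is limited by depth, and intervals cover the spread between these samples only. Alternatives were edgeR 4.0.16, total-count size factors, a filter of 10 counts in 3 samples, no independent filtering, a replicate block, fits of the 2 compared groups, leaving out each library, and the longest transcript as gene length. The fits were tested on simulated data. No replicates agreed within sampling noise (chi-square per gene of at least 3.49).

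Same-numbered sgControl and knockout samples in abemaciclib deviated together from their group means (correlations of 0.15, 0.259 and 0.112), which counts as pairing by number there. In the other comparisons at least 1 pair was below 0.1. The labels do not say what a number shares.

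The receptors and gene lists were chosen with earlier results of these data known. Named besides the receptors, *RB1* and *ESR1* are, for each list, up to 3 genes per direction with the largest log2 fold change in the sgControl response and in the interaction, at an adjusted p under 0.05 and a mean of at least 100, the 2 nearest chromosomal neighbours and the 2 genes of the most similar profile. One result is not reported here. The comparison with genes of a mean of at least 100 and the shares of genes without overlap were added after the data were seen. Coordinates are from GENCODE 44 on GRCh38. Of the promoter entries, 1 each for *RET*, *EGFR* and *MET* was used here, and none for the other receptors. A further start of *EGFR* (2 AP-1 motifs) and one of *RET* (1 GC box) were not used.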

Additional observations from a re-analysis of the deposited data

Results flagged for a closer look

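The response to abemaciclib differed between *RB1*-knockout and sgControl cells, by the test of the difference itself, for 9 receptors, and the values below are the knockout response minus the sgControl response on the log2 scale. They were 2.83 for *EGFR*, 2.80 for *MET*, 0.57 for *FGFR1* and 0.53 for *FGFR4*. They were −1.72 for *RET*, −1.31 for *ERBB2*, −1.17 for *ERBB4*, −0.99 for *FGFR3* and −0.59 for *FGFR2*. The same test passed for 41.4% of all genes. Groups of 3 libraries are too small for a test of single outlying values.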

How the results depend on the processing

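The 10 receptors gave 890 values under the alternatives to the 5 comparisons, of which 878 kept direction and call, 6 lost the call, 6 gained it and 0 reversed. Those of *ERBB3*, *ERBB4*, *FGFR2*, *FGFR3* and *FGFR4* that changed are given beside the results, except 2 gained without replicate 1 of sgControl in DMSO for the knockout response (*ERBB3* 0.14, adjusted p = 0.00513, and *FGFR3* −0.16, adjusted p = 0.0346). The replicate block changed no receptor call (interaction of *RET* −1.72). Total-count size factors moved the median gene by −0.133 in the sgControl response and 0.137 in the interaction, and the split of calls to 4532 higher and 6779 lower, and to 5467 higher and 3098 lower. No receptor changed direction.

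With the longest transcript as gene length, levels in sgControl cells in DMSO were 15.79 normalized counts per kb for *EGFR* and 10.41 for *MET*, 47.29 for *ERBB4*, 3143.92 for *ERBB2*, 1496.35 for *ERBB3*, 759.08 for *FGFR1*, 59.25 for *FGFR2*, 664.29 for *FGFR3*, 7208.85 for *FGFR4* and 89.19 for *RET*. The *ERBB2* share was then 66.9% and 75.15% in sgControl cells in DMSO and abemaciclib and 61.83% and 50.82% in knockout cells. The *FGFR4* share was 59.6% in sgControl cells in abemaciclib and 77.56% and 64.64% in knockout cells.

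Of 1068 list counts under the alternatives, 41 moved by more than 1.5 times. In the fit of the 2 compared groups, 3 adaptors were called higher and 2 feedback inhibitors lower between genotypes in DMSO, and 1 FGF gene and 1 RET gene lower in the knockout response. Without independent filtering and with the replicate block 2 feedback inhibitors were lower between genotypes in DMSO, and without that filtering 1 ERK-dependent transcript responded less in the knockout, as with total-count factors, where 1 was also lower in abemaciclib. edgeR called 2 FGF genes lower there. Leaving out single libraries moved further list counts. In the knockout response they ranged from 3 to 8 adaptors lower, 1 to 2 feedback inhibitors lower, 1 to 3 MET genes higher, 3 to 7 other receptor tyrosine kinases lower, and 3 to 5 RET genes higher and 0 to 1 lower. The libraries behind the lowest counts were replicate 3 of the knockout in abemaciclib for the adaptors, replicates 1 and 2 of that group for the RET genes, and replicate 2 of the knockout in DMSO and replicates 1 and 3 in abemaciclib for the kinases. In the interaction the ranges were 5 to 11 adaptors and 3 to 5 FGF genes higher, both lowest without replicate 2 of sgControl in DMSO, and 1 to 2 ERK-dependent transcripts and 1 to 2 RET genes lower. Between genotypes in DMSO they were 3 to 6 adaptors higher and 2 to 7 lower (7 without replicate 1 of sgControl in DMSO), 2 to 4 ERK-dependent transcripts, 0 to 1 FGF genes and 1 to 4 feedback inhibitors lower (1 without replicate 3 of either group). In abemaciclib they were 1 to 2 ERK-dependent transcripts and 0 to 1 RET genes lower. For the 43 other genes chosen by the naming rule, 2186 of 2279 values kept direction and call, 71 lost the call, 22 gained it and 0 reversed. The causes were not tested.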
